A study of Mus musculus with 9 samples.

Results

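A set of 10 genes that bring fatty acids into cells, store them as fat and release them again was followed by name: Lpl, Cd36, Fabp4, Fabp5, Acsl1, Dgat2, Plin2, Plin3, Pnpla2 and Hilpda. They were chosen by symbol, from the mouse GRCm38 gene names of the Ensembl identifiers in the count table. All 10 were found among its 54532 genes, and all 10 were among the 12012 genes with enough counts to test. Across the 3 culture conditions they went different ways. Libraries of neutrophils sorted from PyMT-N co-culture had less Lpl, Cd36, Plin3 and Acsl1 RNA and more Hilpda than libraries of neutrophils kept alone. With PyMT-M cells, Lpl and Hilpda were above their levels alone. The PyMT-N libraries also held RNA of epithelial marker genes, and the summed RNA of mesenchymal marker genes was higher in both co-cultures than alone. The part of these markers in any difference reported here was not tested. Plin2 was higher with PyMT-N than with PyMT-M cells, while its place relative to the cells alone depended on how libraries were scaled.

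Cells take up fatty acids that lipoprotein lipase (Lpl) frees from circulating triglyceride, partly through the membrane receptor CD36. Inside, fatty acid binding proteins carry them, acyl-CoA synthetases activate them, and diacylglycerol acyltransferases join them into triglyceride. The triglyceride is packed into lipid droplets coated by perilipins and released again by lipases, of which adipose triglyceride lipase (Pnpla2) takes the first step. Neutrophils, short-lived phagocytes made in bone marrow, can hold lipid droplets and can burn fatty acids or pass them on.

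The samples were bulk RNA libraries of neutrophils taken from bone marrow of wild type mice of the C57/B6 strain and cultured for 12 h in low serum (0.5% FBS, fetal bovine serum). In 3 libraries the neutrophils had shared the dish with PyMT-N cells and in 3 with PyMT-M cells, in DMEM, and were then sorted by flow cytometry; in the other 3 they were kept alone, with no medium name in the label. PyMT is the polyoma virus middle T antigen, an oncogene that gives mice mammary tumours; what N and M stand for is not stated, nor are the age and sex of the mice. The labels do not say whether the cells kept alone were sorted, so sorting and co-culture cannot be told apart in a comparison with them.

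Libraries held 1641049 to 4524563 counts, so 1 normalised CPM (counts relative to library size after trimmed-mean scaling) stood for 1.33 to 5.24 counts. Replicate 3 of the cells alone was the shallowest, with 11814 genes detected and a mitochondrial messenger RNA share of 1.75%, where its fellow libraries had 0.235% and 0.180%. All 15 neutrophil marker genes had counts in every group, with summed levels of 17982 to 22940 CPM with PyMT-N cells, 17390 to 21822 CPM with PyMT-M cells and 36009 to 49911 CPM alone. These sums were led by S100a9 and S100a8, and other members went both ways between the co-cultures. Ltf averaged 44.5, 1514 and 1954 CPM and Ngp 66.2, 883 and 1242 CPM with PyMT-N cells, with PyMT-M cells and alone. In the same order Mmp9 averaged 2970, 996 and 3491.5 CPM and Fpr2 1327, 559 and 1176 CPM. The samples are called biological replicates without being tied to separate animals, so p-values measure the spread between these libraries. Library names share a number between same-numbered replicates of all groups, and what that number marks is not stated. A lower level in bulk RNA can come from fewer cells of a type or from less RNA per cell, and these cannot be told apart.

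Fold changes depended on the scaling, and trimmed-mean values are given first. With library totals, the log2 fold changes over all genes shifted by a median of 0.29 (PyMT-N against alone), 0.50 (PyMT-M against alone) and -0.21 (between the co-cultures). With size factors from 20 genes that all leukocytes use, the shifts were 1.24, 1.68 and -0.43. Of those 20 genes, 19 were tested, and their own trimmed-mean log2 fold changes had medians of -1.24, -1.67 and 0.47 (SD 0.83, 0.40 and 0.76).

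**Figure D1:**
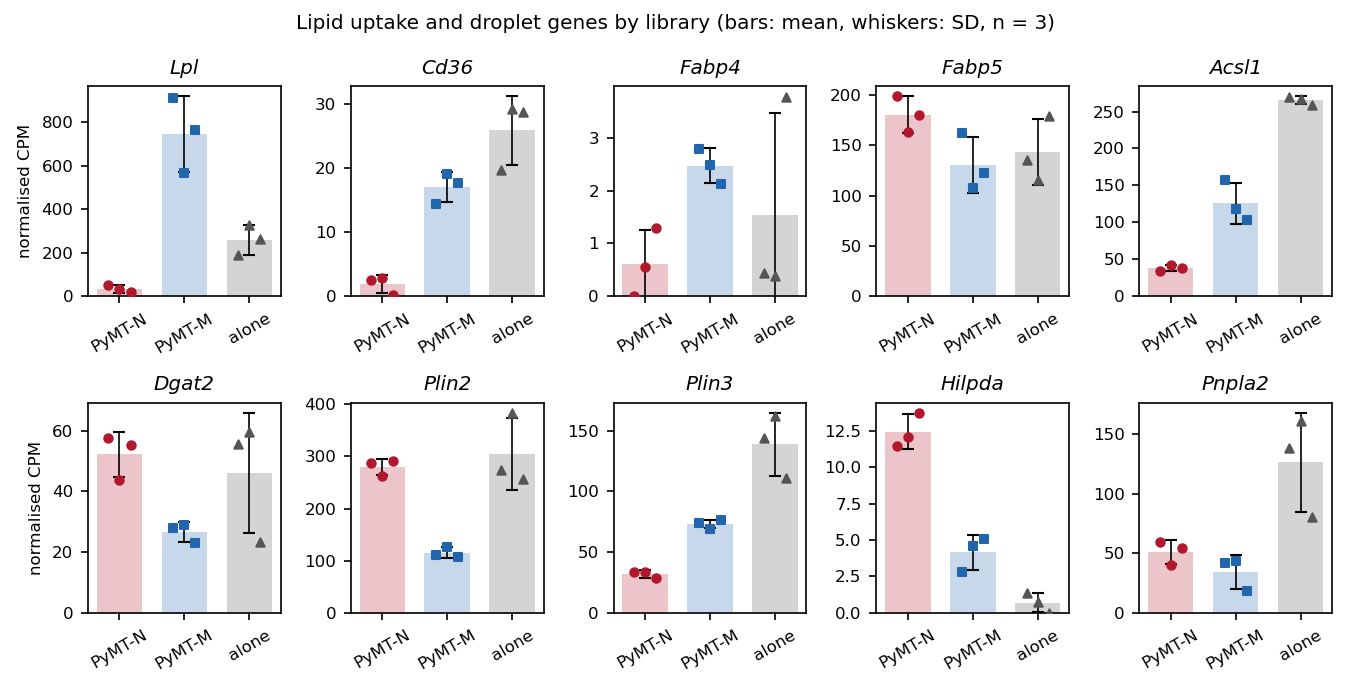
Normalised CPM (vertical axes, each with its own scale) of the 10 lipid genes in the 9 libraries; points are libraries, bars are group means and whiskers are SD (n = 3). Lpl is highest with PyMT-M cells and lowest with PyMT-N cells, Plin2 is lowest with PyMT-M cells on this scaling, and Hilpda is highest with PyMT-N cells.

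Against neutrophils alone, PyMT-N co-culture called 1 of the 10 genes higher (Hilpda) and 5 lower (Lpl, Cd36, Plin3, Pnpla2 and Acsl1). Over all tested genes 29.4% were called higher and 23.6% lower in that comparison. PyMT-M co-culture against alone called 2 higher (Lpl and Hilpda) and 5 lower (Plin2, Plin3, Pnpla2, Acsl1 and Dgat2), where 28.2% and 27.9% of all genes were called higher and lower. PyMT-N against PyMT-M co-culture called 3 higher (Plin2, Hilpda and Dgat2) and 4 lower (Lpl, Cd36, Plin3 and Acsl1), where the shares over all genes were 19.1% higher and 15.5% lower. The median log2 fold change of the 10 genes was -1.02, -0.72 and -0.37 in these comparisons, beside 0.12, -0.03 and -0.02 over all genes. Both comparisons with the cells alone share the same 3 control libraries.

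With library totals, 2 of the 10 genes were higher and 5 lower for PyMT-N against alone (35.9% and 17.6% of all genes). The split was 2 and 3 with PyMT-M cells (38.1% and 15.9%), and 2 and 4 between the co-cultures (15.3% and 22.5%). With scaling to leukocyte genes they were 4 higher and 4 lower for PyMT-N against alone (61.3% and 5.99% of all genes) and 8 and 0 for PyMT-M against alone (68.5% and 1.48%). Between the co-cultures that scaling gave 2 higher and 5 lower (11.6% and 27.8%). For these 10 genes, directions against the cells alone are therefore stated below with the scaling under which they turn. The comparison of the co-cultures kept its direction for all 10 genes under every scaling tried. Other genes given below only as normalised CPM are on trimmed-mean scaling, and their order against the cells alone can turn too.

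**Figure D2:**
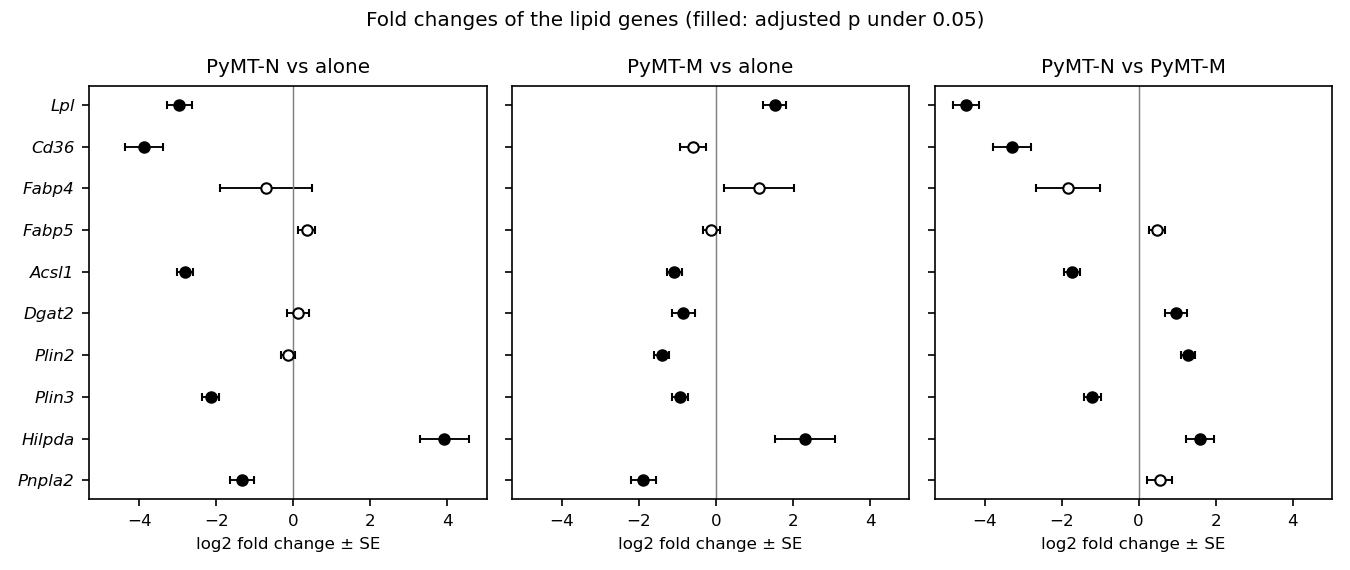
Log2 fold change ± SE (horizontal axes) of each lipid gene in the 3 comparisons, from edgeR with trimmed-mean scaling; filled points have an adjusted p under 0.05. Lpl lies at -2.95 for PyMT-N and at 1.53 for PyMT-M co-culture against alone, and Hilpda is right of 0 in all 3 panels.

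Lpl encodes lipoprotein lipase, the secreted enzyme that releases fatty acids from the triglyceride of lipoproteins (ENSMUSG00000015568, chr8:68880491-68907448, plus strand, GRCm38). It was at 53.1, 30.9 and 17.9 normalised CPM with PyMT-N cells, at 912, 566 and 763 CPM with PyMT-M cells and at 187, 327 and 261 CPM alone. No group overlapped another: every PyMT-N library was below, and every PyMT-M library above, all libraries of cells alone. The fold change against alone was -2.95 ± 0.34 (log2, SE, n = 3 per group) with PyMT-N cells (edgeR adjusted p = 4.87e-06) and 1.53 ± 0.30 with PyMT-M cells (edgeR adjusted p = 6e-04). Set against each other, the co-cultures differed by -4.48 ± 0.35 (edgeR adjusted p = 1.75e-07), which put Lpl 22.3-fold lower with PyMT-N than with PyMT-M cells. The direction in each comparison was the same under every scaling and with any 1 library of the compared groups left out.

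Cd36 encodes the scavenger receptor through which many cells take up long-chain fatty acids and oxidised lipoproteins (ENSMUSG00000002944, chr5:17781690-17888801, minus strand, GRCm38). Its normalised CPM was 2.58, 2.75 and 0.215 with PyMT-N cells, 14.4, 19.1 and 17.6 with PyMT-M cells and 19.6, 29.1 and 28.7 alone. The lowest of these rested on 1 count, in PyMT-N replicate 3, and no PyMT-N library reached the level of any other library. Cd36 was lower with PyMT-N cells than alone by -3.88 ± 0.50 (edgeR adjusted p = 1.23e-05) and than with PyMT-M cells by -3.29 ± 0.49 (edgeR adjusted p = 8.64e-05). The PyMT-M libraries all lay below the cells alone, but the fold change of -0.59 ± 0.34 missed the threshold (edgeR adjusted p = 0.152) and stood at 1.10 with leukocyte scaling (adjusted p = 0.0119).

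Fabp4 and Fabp5 encode cytosolic carriers of fatty acids and are paralogs that lie close together on chromosome 3. Fabp4, a gene typical of adipocytes and macrophages (ENSMUSG00000062515, chr3:10204088-10208576, minus strand), had 0, 2 and 6 counts with PyMT-N cells, 13, 13 and 8 with PyMT-M cells and 1, 1 and 5 alone. The 0 allows up to 0.861 normalised CPM in that library. No Fabp4 difference passed the threshold on trimmed-mean scaling, with log2 values of -0.71 ± 1.19, 1.11 ± 0.91 and -1.82 ± 0.83 for PyMT-N against alone, PyMT-M against alone and PyMT-N against PyMT-M (edgeR adjusted p = 0.639, 0.306 and 0.0968), and the first turned to 0.49 with leukocyte scaling. Limma-voom with sample weights put both comparisons with PyMT-M libraries past the threshold, at 1.91 (adjusted p = 0.043) and -1.81 (adjusted p = 0.0327), as did leukocyte scaling, at 2.74 (adjusted p = 0.00658) and -2.26 (adjusted p = 0.0372).

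Fabp5 (ENSMUSG00000027533, chr3:10012548-10016607, plus strand) was abundant in all groups, at 199, 163 and 179.7 normalised CPM with PyMT-N cells, 162, 107 and 122 CPM with PyMT-M cells and 135, 115 and 179 CPM alone. The PyMT-N libraries lay just above the PyMT-M libraries and overlapped the cells alone. Fold changes against alone of 0.35 ± 0.22 with PyMT-N cells and -0.12 ± 0.22 with PyMT-M cells, and of 0.47 ± 0.21 between the co-cultures, missed the threshold (edgeR adjusted p = 0.185, 0.663 and 0.0971). The first was past it without replicate 3 of the cells alone (0.53, adjusted p = 0.0235), with library totals (0.645, adjusted p = 0.0165) and with limma-voom (0.50, adjusted p = 0.0244). The difference between the co-cultures was past it with limma-voom (0.50, adjusted p = 0.0138) and with a fit of those groups alone (0.46, adjusted p = 0.0305), and was 0.26 with library totals (adjusted p = 0.345). Leukocyte scaling put both co-cultures above alone, at 1.59 and 1.55.

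Acsl1 encodes a long-chain acyl-CoA synthetase, which activates fatty acids for storage or oxidation (ENSMUSG00000018796, chr8:46471037-46536051, plus strand, GRCm38). It was at 34.4, 41.6 and 38.1 normalised CPM with PyMT-N cells, 157, 117 and 103 CPM with PyMT-M cells and 270.0, 267 and 259 CPM alone. The 3 groups stood apart, with PyMT-N lowest and the cells alone highest and nearly level among themselves. Acsl1 was lower than alone by -2.80 ± 0.21 with PyMT-N cells (edgeR adjusted p = 5.58e-08). With PyMT-M cells it was lower by -1.08 ± 0.19 (edgeR adjusted p = 0.000263), which became 0.59 with leukocyte scaling (adjusted p = 0.036). Between the co-cultures the difference was -1.72 ± 0.21 (edgeR adjusted p = 1.16e-05). An antisense gene model, Gm45244, overlaps Acsl1 over 1039 bases, and had 11 counts in all libraries together.

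Dgat2 encodes a diacylglycerol acyltransferase, which makes triglyceride (ENSMUSG00000030747, chr7:99153658-99182719, minus strand, GRCm38). Its normalised CPM was 57.7, 43.8 and 55.3 with PyMT-N cells, 27.9, 28.8 and 22.9 with PyMT-M cells and 55.7, 59.4 and 23.4 alone. Replicate 3 of the cells alone fell among the PyMT-M libraries, replicate 1 among the PyMT-N libraries and replicate 2 just above them. PyMT-N against alone gave 0.12 ± 0.29 (edgeR adjusted p = 0.754), which was 1.36 with leukocyte scaling (adjusted p = 0.000581). PyMT-M against alone gave -0.85 ± 0.30 (edgeR adjusted p = 0.0245), a call that was lost with library totals (-0.35, adjusted p = 0.351), with DESeq2 (-0.68, adjusted p = 0.0772) and with a fit of the compared groups alone (-0.72, adjusted p = 0.093). It was also lost without any 1 library of the compared groups other than replicate 3 of the cells alone, and turned to 0.83 with leukocyte scaling. PyMT-N against PyMT-M gave 0.97 ± 0.28 (edgeR adjusted p = 0.0143), which was 0.75 with library totals (adjusted p = 0.0502) and 0.53 with leukocyte scaling (adjusted p = 0.168), and missed the threshold without PyMT-N replicate 1 or 3 or PyMT-M replicate 3 (0.90, 0.93 and 0.87, adjusted p of 0.0569 to 0.0595).

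Plin2 encodes perilipin 2, the coat protein that most non-adipose cells put on their lipid droplets (ENSMUSG00000028494, chr4:86648386-86670060, minus strand, GRCm38). It was at 288, 263 and 291 normalised CPM with PyMT-N cells, 112, 127 and 108 CPM with PyMT-M cells and 275, 384 and 256 CPM alone. All PyMT-M libraries lay below all others, while the PyMT-N libraries lay within the range of the cells alone. Plin2 was lower with PyMT-M cells than alone by -1.41 ± 0.19 (edgeR adjusted p = 2.19e-05), which became 0.28 with leukocyte scaling (adjusted p = 0.291). With PyMT-N cells the value against alone was -0.13 ± 0.18 (edgeR adjusted p = 0.579), which became 1.13 with leukocyte scaling (adjusted p = 0.000207). The difference between the co-cultures, 1.28 ± 0.19 (edgeR adjusted p = 7.12e-05), kept its sign under every scaling.

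Plin3, a perilipin that moves between cytosol and new droplets (ENSMUSG00000024197, chr17:56277476-56292873, minus strand, GRCm38), was at 33.6, 33.9 and 28.2 normalised CPM with PyMT-N cells. It was at 73.7, 69.3 and 76.4 CPM with PyMT-M cells and at 144, 162 and 111 CPM alone. The groups stood apart in the same order as for Acsl1. Plin3 was lower than alone by -2.14 ± 0.22 with PyMT-N cells (edgeR adjusted p = 1.24e-06). With PyMT-M cells the value was -0.94 ± 0.20 (edgeR adjusted p = 0.00119), which was -0.44 with library totals (adjusted p = 0.088) and 0.75 with leukocyte scaling (adjusted p = 0.0147). PyMT-N against PyMT-M gave -1.20 ± 0.22 (edgeR adjusted p = 0.000448), so that the perilipins differed between the co-cultures in opposite directions. The ratio of Plin2 to Plin3 counts, which no scaling of libraries can change, was 8.56, 7.76 and 10.3 with PyMT-N cells, 1.51, 1.83 and 1.41 with PyMT-M cells and 1.91, 2.37 and 2.31 alone. All PyMT-N libraries had a higher ratio than all others, and it was lower in every PyMT-M library than in any library of cells alone.

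Pnpla2 encodes adipose triglyceride lipase (ENSMUSG00000025509, chr7:141455198-141460743, plus strand, GRCm38). Its normalised CPM was 59.1, 39.7 and 54.0 with PyMT-N cells, 41.7, 43.5 and 18.1 with PyMT-M cells and 139, 161 and 79.9 alone. All co-culture libraries lay below the cells alone, and the co-cultures overlapped each other. The fold change against alone was -1.34 ± 0.31 with PyMT-N cells (edgeR adjusted p = 0.00225) and -1.88 ± 0.32 with PyMT-M cells (edgeR adjusted p = 0.000174), values that were -0.10 and -0.21 with leukocyte scaling (adjusted p = 0.784 and 0.55). PyMT-N against PyMT-M gave 0.55 ± 0.32 (edgeR adjusted p = 0.209).

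Hilpda encodes a small droplet protein that hypoxia induces and that binds and inhibits adipose triglyceride lipase (ENSMUSG00000043421, chr6:29272488-29275446, plus strand, GRCm38). It had 40, 44 and 64 counts with PyMT-N cells, 13, 24 and 19 with PyMT-M cells and 3, 2 and 0 alone. These made 11.5, 12.1 and 13.8 normalised CPM with PyMT-N cells, 2.79, 4.58 and 5.06 CPM with PyMT-M cells and 1.34, 0.747 and 0 CPM alone, where the 0 allows up to 2.26 CPM. Every PyMT-N library was above every PyMT-M library, and these above every library of cells alone. Hilpda was higher than alone by 3.91 ± 0.64 with PyMT-N cells (edgeR adjusted p = 5.77e-05) and by 2.31 ± 0.78 with PyMT-M cells (edgeR adjusted p = 0.0173). It was higher with PyMT-N than with PyMT-M cells by 1.6 ± 0.36 (edgeR adjusted p = 0.00195), and all 3 directions held under every scaling. With PyMT-M cells the call against alone rested on few counts, and was lost without replicate 2 of the cells alone (2.25, adjusted p = 0.0889). The ratio of Hilpda to Pnpla2 counts was 0.194, 0.306 and 0.255 with PyMT-N cells, 0.067, 0.105 and 0.279 with PyMT-M cells and 0.00965, 0.00465 and 0 alone. In that ratio the co-cultures overlapped, and all their libraries were above the cells alone.

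Hilpda and Plin2 were both higher with PyMT-N than with PyMT-M cells, and Hilpda is a known target of hypoxia-inducible factors, so their start site regions are shown with that of Acsl1, which moved the other way. RefSeq promoter windows, from 250 bases before to 50 after a start site (GRCm38.p6), were found for 6 of the 10 genes: Acsl1, Cd36, Hilpda, Plin2, Plin3 and Pnpla2. Hilpda and Acsl1 have 2 windows each, of which the one with more motif matches is printed. Capitals mark the hypoxia response core ACGTG and the related GCGTG on either strand, so that CACGC is GCGTG read on the other strand. The windows are chr6:29272376-29272675 (plus strand) for Hilpda, chr4:86670010-86670309 (minus strand) for Plin2 and chr8:46470787-46471086 (plus strand) for Acsl1.
Hilpda: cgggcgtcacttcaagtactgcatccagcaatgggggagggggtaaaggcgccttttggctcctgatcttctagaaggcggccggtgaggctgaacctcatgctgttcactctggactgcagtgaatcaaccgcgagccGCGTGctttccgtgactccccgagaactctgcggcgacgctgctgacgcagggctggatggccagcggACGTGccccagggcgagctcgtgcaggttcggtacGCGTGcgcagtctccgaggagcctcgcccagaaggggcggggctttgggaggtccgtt
Plin2: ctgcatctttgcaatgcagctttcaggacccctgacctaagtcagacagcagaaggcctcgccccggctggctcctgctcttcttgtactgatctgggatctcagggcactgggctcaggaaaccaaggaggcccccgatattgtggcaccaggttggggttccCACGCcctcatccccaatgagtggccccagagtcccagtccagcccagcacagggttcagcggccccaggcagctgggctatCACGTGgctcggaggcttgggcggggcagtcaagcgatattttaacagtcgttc
Acsl1: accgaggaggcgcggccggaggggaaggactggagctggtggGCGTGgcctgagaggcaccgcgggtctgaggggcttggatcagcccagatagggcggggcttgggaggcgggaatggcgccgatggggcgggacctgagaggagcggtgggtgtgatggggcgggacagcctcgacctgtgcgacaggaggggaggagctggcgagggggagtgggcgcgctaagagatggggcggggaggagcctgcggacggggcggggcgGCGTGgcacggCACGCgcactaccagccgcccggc
The printed Hilpda window held 1 ACGTG and 2 GCGTG, and the Plin2 window held 1 GCGTG and a CACGTG, which reads ACGTG on both strands in overlapping letters. The printed Acsl1 window held no ACGTG and 3 GCGTG. The other Hilpda window (chr6:29272238-29272537), at the gene start given above, overlaps the printed one and held no ACGTG and 1 GCGTG, and the other Acsl1 window (chr8:46490716-46491015) held neither. The windows of Cd36, Plin3 and Pnpla2 held neither motif. Those of Cd36 (chr5:17835847-17836146) and Plin3 (chr17:56290462-56290761) lie inside the gene spans given above and not at their outer start, so that start was not searched. Of 32851 windows of 300 bases, 19.6% held ACGTG, 32.4% GCGTG and 43.8% either. These shares are for single windows, and not for windows picked by their matches, as the printed windows of Hilpda and Acsl1 were. The motif matches describe letters in a window and not binding, and their part in the differences between groups was not tested.

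**Figure D3:**
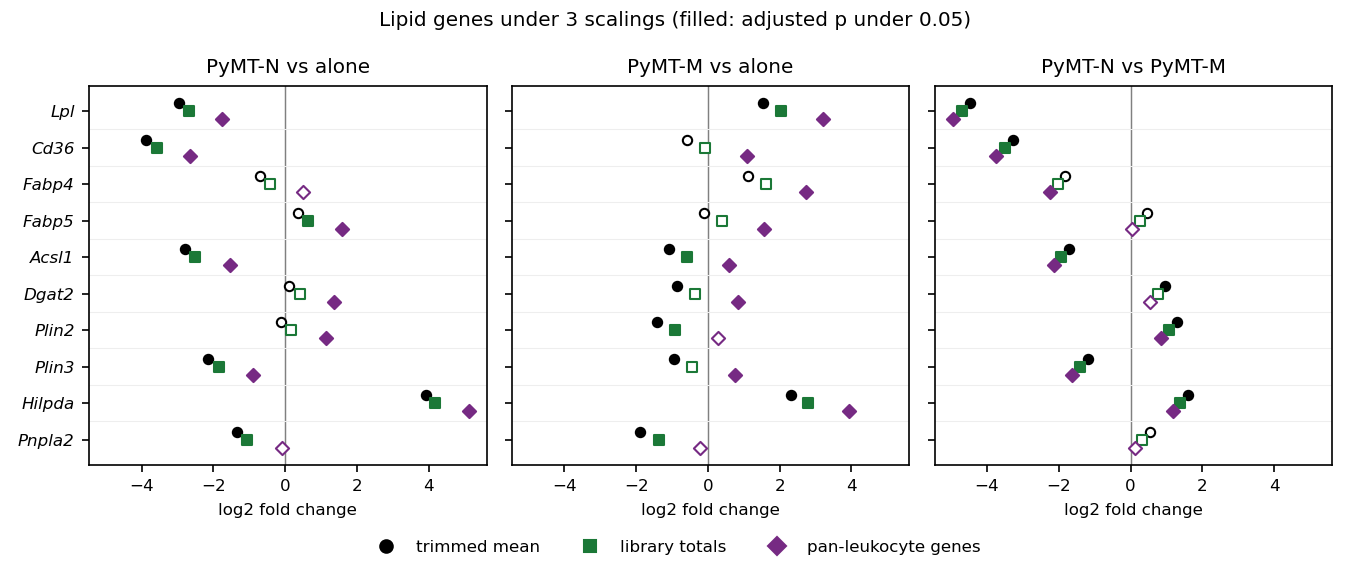
Log2 fold change of each lipid gene (horizontal axes) with trimmed-mean scaling (circles), library totals (squares) and scaling to leukocyte genes (diamonds); filled symbols have an adjusted p under 0.05. Against the cells alone the scalings spread each gene by up to about the shift of all genes and turn the sign for Plin2 in both panels, for Fabp4 with PyMT-N cells and, with PyMT-M cells, for Cd36, Fabp5, Acsl1, Dgat2 and Plin3; PyMT-N against PyMT-M shows no change of sign.

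Among themselves the 10 genes changed rank between groups, compared as mean normalised CPM per kb of exon. The divisor was the union of all annotated exons of a gene, which need not be the length of the transcript present. For Fabp4 it was 4489 bases, the whole gene span given above. The order between genes therefore holds for this divisor only, whereas values of the same gene in different groups share it. With PyMT-N cells Plin2 was first (79.9 ± 4.34 CPM per kb, SD, n = 3), followed by Fabp5 (50.6 ± 5.06). Dgat2 and Pnpla2 (17.0 and 16.9), Acsl1 and Lpl (3.63 and 3.24) and Cd36 and Fabp4 (0.516 and 0.137) were neighbours whose libraries overlapped, with Hilpda (11.3) and Plin3 (8.42) apart between the first and second pairs. With PyMT-M cells Lpl was first (71.3 ± 16.6 CPM per kb), ahead of Fabp5 and Plin2, which overlapped (36.5 and 32.8), and of Plin3 (19.3). Acsl1, Pnpla2 and Dgat2 overlapped in a chain (12.0, 11.4 and 8.61), as did Cd36 and Hilpda (4.74 and 3.76), and Fabp4 was last (0.550). Alone, Plin2 led (86.9 ± 19.7 CPM per kb), then Pnpla2, Fabp5 and Plin3 without a gap between neighbours (41.9, 40.1 and 36.7), then Acsl1, Lpl, Dgat2 and Cd36 in another such run (25.3, 24.7, 14.97 and 7.19). Hilpda and Fabp4 (0.630 and 0.341) overlapped at the bottom.

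As shares of the counts of these 10 genes, Lpl made up 4.90% ± 2.28 (SD, n = 3) with PyMT-N cells, 58.1% ± 5.22 with PyMT-M cells and 19.6% ± 3.74 alone. Plin2 made up 41.2% ± 2.00 with PyMT-N cells, 9.26% ± 2.18 with PyMT-M cells and 23.1% ± 2.18 alone. For both genes no group overlapped another. Shares do not depend on library scaling, but they add to a fixed total, so a large Lpl share lowers that of Plin2. The low Plin2 share with PyMT-M cells stands beside the Lpl share of 58.1% and does not by itself show less Plin2. The 10 genes together held 0.0653% to 0.0724% of all counts with PyMT-N cells, 0.132% to 0.175% with PyMT-M cells and 0.0971% to 0.127% alone.

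Markers of other cells also differed between the groups, and their part in the results was not tested. Epithelial markers (20 genes, led by Krt7 and Krt8) summed to 2640.2 to 3544 CPM with PyMT-N cells, with 19 of 20 detected, which is where Hilpda was highest and Lpl lowest. They summed to 138 to 199 CPM with PyMT-M cells (15 of 20 detected, Krt14, Cldn3, Cldn4, Esrp1 and Krt5 at 0) and 70.9 to 136 CPM alone (13 of 20 detected, Epcam, Krt19, Krt5, Krt14, Cldn4, Esrp1 and Dsp at 0). Mesenchymal markers (22 genes, led by Fn1 and Cald1) summed to 1553 to 1905 CPM with PyMT-N cells, 1424.5 to 1547 CPM with PyMT-M cells and 216 to 267 CPM alone, with 14, 17 and 15 of 22 detected. Lum was at 0 in every library, Postn in both co-cultures, Thy1, Dcn and Cdh2 with PyMT-M cells, and Dcn, Twist1 and Cdh2 alone. The list's members went both ways between the co-cultures. Fn1 averaged 884 CPM with PyMT-N and 1.22 CPM with PyMT-M cells, Cald1 412 and 143 CPM, Cav1 189.5 and 119 CPM and Cdh2 19.1 and 0 CPM, whereas the collagen genes Col3a1, Col6a1 and Col6a2 had no count with PyMT-N cells and averaged 233, 141 and 41.7 CPM with PyMT-M cells.

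Monocyte and macrophage markers (16 genes, led by Lyz2, which neutrophils express too, and Ly6c2) summed to 3553.5 to 4781 CPM with PyMT-N cells, 6864 to 9282 CPM with PyMT-M cells and 26753 to 30279 CPM alone. Lyz2 carried these sums, with means of 3204, 7724 and 26661 CPM in the same group order. Other members went other ways, with Ly6c2 at 495, 394 and 581 CPM, Csf1r at 134, 46.7 and 342 CPM and Cd68 at 78.6, 46.8 and 136 CPM, all lowest with PyMT-M cells, and Fcgr1 at 161, 45.2 and 2.02 CPM. They had 15, 16 and 15 of 16 detected, with Cd5l at 0 with PyMT-N cells and C1qa at 0 alone. Dendritic cell markers (12 genes, led by Cd74 and H2-Aa) summed to 119 to 159 CPM, 73.3 to 98.7 CPM and 381 to 753 CPM in the same group order, with 11 of 12 detected in each (Siglech, Flt3 and Xcr1 the ones at 0). B cell markers (10 genes, 10, 8 and 10 detected) summed to 17.2 to 22.9 CPM with PyMT-N cells, 80.4 to 127 CPM with PyMT-M cells and 599 to 1401 CPM alone. Eosinophil, basophil and mast cell markers (12 genes, 10, 11 and 11 detected) summed to 22.1 to 26.9 CPM, 15.3 to 16.4 CPM and 434 to 549 CPM in that group order. Of the adipocyte genes, Plin1, Cidec and Lep had no count in any library and Adipoq none in a co-culture, although that list's sum, carried by Adipor2 and Retn, was 106 to 131 CPM with PyMT-N cells, 82.6 to 98.0 CPM with PyMT-M cells and 115 to 194 CPM alone.

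The rest of the pathway was counted from lists drawn up by function. These counts stand beside the shares of all genes called higher and lower given above, 29.4% and 23.6% for PyMT-N against alone, 28.2% and 27.9% for PyMT-M against alone and 19.1% and 15.5% for PyMT-N against PyMT-M. With leukocyte scaling the shares are 61.3% and 5.99%, 68.5% and 1.48%, and 11.6% and 27.8% in that order. Among 9 tested uptake genes, 4 were higher and 1 lower with PyMT-N cells than alone, 3 and 2 with PyMT-M cells than alone, and 2 and 2 with PyMT-N than with PyMT-M cells (7 and 0, 7 and 0, and 2 and 3 with leukocyte scaling). Angptl4, which encodes an inhibitor of lipoprotein lipase, averaged 4.37 ± 0.444 normalised CPM with PyMT-N cells and 6.70 ± 2.65 with PyMT-M cells and had no count alone, so it was at least 9.03-fold and 13.9-fold higher, taking 3 counts for the 3 libraries of cells alone. Olr1, a receptor for oxidised lipoproteins, was higher with PyMT-N than with PyMT-M cells (12.2 ± 3.57 against 1.31 ± 0.780 CPM, log2 3.20 ± 0.54, edgeR adjusted p = 0.000223). The fatty acid transporter gene Slc27a1 went the way of Lpl between the co-cultures, at 13.1 ± 3.25 CPM with PyMT-N and 47.4 ± 9.95 CPM with PyMT-M cells (log2 -1.83 ± 0.33, edgeR adjusted p = 0.000443). Slc27a4, another transporter gene of that family, was lower than alone with PyMT-N cells (-1.61 ± 0.21, edgeR adjusted p = 1.77e-05) and with PyMT-M cells (-1.42 ± 0.21, edgeR adjusted p = 5.53e-05), against -0.36 and 0.25 on the leukocyte scale.

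The other acyl-CoA synthetases went both ways. Of 8 tested, 3 were higher and 3 lower with PyMT-N cells than alone, 2 and 1 with PyMT-M cells than alone, and 2 and 3 with PyMT-N than with PyMT-M cells (4 and 1, 6 and 0, and 2 and 4 with leukocyte scaling). Acsl3 and Acsl4 were among those higher with PyMT-N cells than alone, at 3.21 ± 0.56 (edgeR adjusted p = 0.000184) and 2.42 ± 0.25 (edgeR adjusted p = 1.14e-06). Acsbg1 had 897 counts over the PyMT-N libraries against 2 alone, a 238-fold ratio of CPM (95% counting interval 65.8 to 1970.0), and averaged 76.1 ± 7.31 CPM with PyMT-N and 0.529 ± 0.294 CPM with PyMT-M cells. Acsl6 had 117 counts over the PyMT-M libraries and 0 in both other groups, so it was at least 17.9-fold higher with PyMT-M cells than alone. Acss1, a mitochondrial acetyl-CoA synthetase gene, was lower than alone with PyMT-N cells (-4.07 ± 0.80, edgeR adjusted p = 0.000426) and with PyMT-M cells (-2.79 ± 0.65, edgeR adjusted p = 0.00169, and -1.12 with an adjusted p of 0.144 under leukocyte scaling).

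Triglyceride and steryl ester synthesis genes were split. Of 14 tested, 5 were higher and 5 lower with PyMT-N cells than alone, 4 and 5 with PyMT-M cells than alone, and 3 and 2 with PyMT-N than with PyMT-M cells (9 and 2, 8 and 0, and 2 and 6 with leukocyte scaling). Soat1, which esterifies cholesterol, was at 398 ± 32.6 normalised CPM with PyMT-N cells, 234 ± 7.08 CPM with PyMT-M cells and 556 ± 88.6 CPM alone, so that like Plin2 it was lowest with PyMT-M cells (PyMT-M against alone -1.25 ± 0.17, edgeR adjusted p = 1.99e-05, and 0.43 with leukocyte scaling). Gpat3, an acyltransferase of the first step, was higher with PyMT-N than with PyMT-M cells by 1.67 ± 0.25 (edgeR adjusted p = 9.93e-05), and Soat2 by 2.79 ± 0.41 (edgeR adjusted p = 7.26e-05). Agpat3 was higher than alone with PyMT-N cells (2.75 ± 0.51, edgeR adjusted p = 0.000348) and with PyMT-M cells (3.05 ± 0.49, edgeR adjusted p = 0.000114). Lpin2, a phosphatidate phosphatase gene, was lower than alone with PyMT-N cells (-2.11 ± 0.27, edgeR adjusted p = 1.05e-05) and with PyMT-M cells (-1.67 ± 0.26, edgeR adjusted p = 8.1e-05), where leukocyte scaling gave 0.04 for PyMT-M.

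Of 16 other droplet coat and biogenesis genes, 8 were tested, and Plin1, Plin4, Plin5, Cidea, Cideb and Cidec were among those with too few counts. None was higher and 1 lower with PyMT-N cells than alone, none higher and 3 lower with PyMT-M cells than alone, and 1 higher and none lower with PyMT-N than with PyMT-M cells (6 and 0, 5 and 0, and 0 and 1 with leukocyte scaling). Over all genes, 53.0% were called either way in the first comparison, 56.1% in the second and 34.6% between the co-cultures, and with leukocyte scaling 61.3%, 68.5% and 11.6% were called higher. Hsd17b11, a droplet dehydrogenase gene, was lower than alone in both co-cultures, at -1.39 ± 0.31 with PyMT-N cells (edgeR adjusted p = 0.00168) and -1.46 ± 0.31 with PyMT-M cells (edgeR adjusted p = 0.00108), against -0.17 and 0.21 on the leukocyte scale. Bscl2, the seipin gene, was at 11.6 ± 2.05 normalised CPM with PyMT-N cells, 6.82 ± 1.55 CPM with PyMT-M cells and 20.5 ± 2.16 CPM alone. On the leukocyte scale its log2 fold changes against alone were 0.48 with PyMT-N cells and 0.13 with PyMT-M cells.

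Lipolysis genes included regulators of the same lipase. Of 8 tested besides Pnpla2, 4 were higher and 1 lower with PyMT-N than with PyMT-M cells, 3 and 4 with PyMT-N cells than alone, and none and 5 with PyMT-M cells than alone (4 and 2, 4 and 2, and 1 and 1 with leukocyte scaling). G0s2, which like Hilpda encodes an inhibitor of adipose triglyceride lipase, averaged 23.8 ± 3.09 normalised CPM with PyMT-N cells, 2.75 ± 1.18 CPM with PyMT-M cells and 3.83 ± 3.74 CPM alone (PyMT-N against PyMT-M 3.09 ± 0.44, edgeR adjusted p = 5.48e-05). Abhd5, the co-activator of that lipase, averaged 37.3 ± 6.64 CPM with PyMT-N cells, 51.7 ± 8.003 CPM with PyMT-M cells and 136 ± 16.02 CPM alone. It was lower than alone by -1.87 ± 0.23 with PyMT-N cells (edgeR adjusted p = 6.42e-06) and by -1.40 ± 0.22 with PyMT-M cells (edgeR adjusted p = 7.9e-05), the second of which was 0.27 with leukocyte scaling. Lipa, the lysosomal acid lipase gene, averaged 474 ± 47.3 CPM with PyMT-N cells, 145 ± 16.7 CPM with PyMT-M cells and 911 ± 227 CPM alone, and PyMT-N exceeded PyMT-M by 1.71 ± 0.19 (edgeR adjusted p = 6.62e-06). With leukocyte scaling its log2 fold changes against alone were 0.29 with PyMT-N cells and -0.98 with PyMT-M cells. Abhd6, a monoacylglycerol lipase gene, had 121 counts over the PyMT-N libraries, 0 over the PyMT-M libraries and 3 alone, so it was at least 46.8-fold higher with PyMT-N than with PyMT-M cells.

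Of 17 tested fatty acid oxidation genes, 1 was higher (Acadl) and 1 lower (Hadh) with PyMT-N than with PyMT-M cells, where 19.1% and 15.5% of all genes were. Against alone 4 were higher and 5 lower with PyMT-N cells and 3 and 3 with PyMT-M cells (9 and 0, 13 and 0, and 0 and 5 between the co-cultures with leukocyte scaling). Cpt1a, the carnitine palmitoyltransferase that admits long-chain fatty acids to mitochondria, averaged 30 ± 4.98 normalised CPM with PyMT-N cells, 37.1 ± 2.73 CPM with PyMT-M cells and 87.2 ± 9.54 CPM alone. Its fold change against alone was -1.53 ± 0.23 with PyMT-N cells (edgeR adjusted p = 5.41e-05) and -1.23 ± 0.22 with PyMT-M cells (edgeR adjusted p = 0.000292), values that were -0.28 and 0.46 with leukocyte scaling. Hadh, a hydroxyacyl-CoA dehydrogenase gene, was higher than alone with PyMT-N cells (1.6 ± 0.32, edgeR adjusted p = 0.000714) and with PyMT-M cells (2.66 ± 0.305, edgeR adjusted p = 5.69e-06).

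Among lipid-sensing regulators, Pparg and Ppara had too few counts to test. Of 12 tested, 4 were higher and 5 lower with PyMT-N cells than alone, 2 and 5 with PyMT-M cells than alone, and 3 and 3 with PyMT-N than with PyMT-M cells (6 and 2, 6 and 1, and 3 and 5 with leukocyte scaling). Nr1h3, the liver X receptor alpha gene, averaged 0.447 ± 0.201 normalised CPM with PyMT-N cells, 8.72 ± 3.44 CPM with PyMT-M cells and 2.39 ± 0.780 CPM alone, the order of Lpl, with PyMT-N against PyMT-M at -4.28 ± 0.59 (edgeR adjusted p = 1.62e-05). Ppard averaged 29.4 ± 2.61 CPM with PyMT-N cells, 10.5 ± 1.13 CPM with PyMT-M cells and 20.1 ± 7.09 CPM alone, with PyMT-N above PyMT-M by 1.49 ± 0.29 (edgeR adjusted p = 0.000875). Cebpa, a regulator of granulocyte and fat cell differentiation, was lower than alone in both co-cultures, by -3.75 ± 0.29 with PyMT-N cells (edgeR adjusted p = 8.63e-08) and by -2.80 ± 0.26 with PyMT-M cells (edgeR adjusted p = 1.03e-06). Cebpb was higher with PyMT-N cells than alone by 2.45 ± 0.26 (edgeR adjusted p = 2.02e-06) and than with PyMT-M cells by 2.16 ± 0.23 (edgeR adjusted p = 3.18e-06).

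Among 6 cholesterol handling genes, 2 were higher and 3 lower with PyMT-N cells than alone, 1 and 3 with PyMT-M cells than alone, and 3 and 1 with PyMT-N than with PyMT-M cells (3 and 1, 4 and 1, and 1 and 2 with leukocyte scaling). The cholesterol exporter gene Abca1 averaged 61.3 ± 2.72 normalised CPM with PyMT-N cells, 2.59 ± 0.297 CPM with PyMT-M cells and 0.795 ± 0.752 CPM alone, with PyMT-N against PyMT-M at 4.56 ± 0.32 (edgeR adjusted p = 8.46e-09). Its relative Abcg1 was high in both co-cultures, at 187 ± 19.3 CPM with PyMT-N cells and 145 ± 22.0 CPM with PyMT-M cells against 15.3 ± 5.06 CPM alone. Apoe, the apolipoprotein E gene, averaged 2.18 ± 1.18 CPM with PyMT-N cells, 8.47 ± 3.02 CPM with PyMT-M cells and 56.8 ± 14.8 CPM alone, and its fold changes against alone, -4.60 ± 0.43 (edgeR adjusted p = 4.93e-07) and -2.70 ± 0.34 (edgeR adjusted p = 1.21e-05), kept their sign with library totals and with leukocyte scaling.

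The hypoxia response list, set beside Hilpda, had 9 of 12 higher and 1 lower with PyMT-N cells than alone, 4 and 3 with PyMT-M cells than alone, and 8 and 0 with PyMT-N than with PyMT-M cells (12 and 0, 9 and 0, and 5 and 0 with leukocyte scaling). Its median log2 fold change was 1.5, 0.165 and 0.93 in that order, beside 0.12, -0.03 and -0.02 over all genes. Slc2a1, the glucose transporter 1 gene, averaged 324 ± 11.9 normalised CPM with PyMT-N cells, 58.7 ± 20.3 CPM with PyMT-M cells and 30.03 ± 7.60 CPM alone, with PyMT-N against PyMT-M at 2.45 ± 0.24 (edgeR adjusted p = 1.44e-06). Car9, a carbonic anhydrase gene used as a hypoxia marker, averaged 25.9 ± 2.11 CPM with PyMT-N cells, 1.04 ± 0.965 CPM with PyMT-M cells and 0.771 ± 0.976 CPM alone. Ldha, lactate dehydrogenase A, was higher than alone in both co-cultures, by 1.77 ± 0.16 with PyMT-N cells (edgeR adjusted p = 3.71e-07) and by 1.555 ± 0.16 with PyMT-M cells (edgeR adjusted p = 2.11e-06). Epithelial markers, at the levels given above, were highest with PyMT-N cells, as Slc2a1 and Car9 were. The summed mesenchymal markers, also given above, were higher in both co-cultures than alone, as Ldha was. The part of these markers was not tested.

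**Figure D4:**
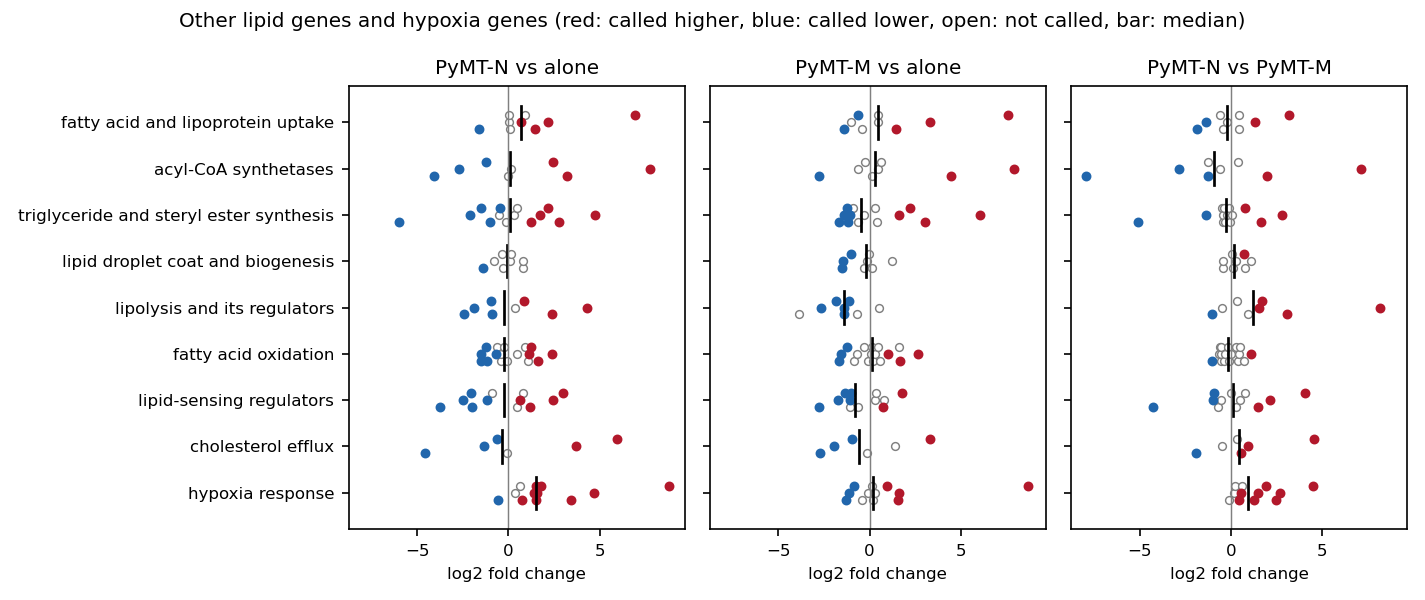
Log2 fold change (horizontal axes, trimmed-mean scaling) of the tested genes of 9 functional lists in the 3 comparisons; red points were called higher, blue points lower and open points neither, and the bar is the list's median. Hypoxia response genes lie mostly right of 0 for PyMT-N against alone (median 1.5) and lipolysis genes mostly left of 0 for PyMT-M against alone (median -1.40), a side that for 5 lower calls becomes 1 lower and 1 higher with leukocyte scaling.

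The genes whose course over the 9 libraries was most like that of each lipid gene were ranked by the root mean square difference of centred log2 CPM, among 8039 genes of at least 10 CPM on average. All points share the same libraries and scaling, and the ranking is a description. Nearest to Plin2 were Zdhhc18 (0.10), Dmxl2 (0.14) and Nqo1 (0.14). Nearest to Plin3 were Max (0.10), H2afz (0.15) and Bcl6 (0.15), and nearest to Acsl1 were Add3 (0.17), E2f2 (0.19) and Clec4a2 (0.22). Hilpda was most like Cttnbp2nl (0.23), Ddx58 (0.28) and Ctsl (0.30). Lpl had its nearest neighbours at larger distances, Zfp704 (0.58), Tfpi (0.65) and Trim35 (0.71). For Cd36 the nearest were Rnf144b (0.31), Tnfsf13b (0.32) and Slamf7 (0.38), for Pnpla2 Rasgrp4 (0.21) and Cd33 (0.22), and for Dgat2 Dennd4b, Mbnl2 and Ccnl1 (0.14 to 0.15).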

How the data were processed

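The 9 libraries, 3 per condition, were each made from 150 pg of RNA, per the labels' protocols. The deposited table holds whole-number read counts for each Ensembl gene, not normalised; the authors aligned the reads with STAR to mouse GRCm38 (mm10), per the submitters' processing notes. The counting tool, its annotation and any use of strand are among the details not given in the sources used here. Genes that overlap or have close copies are therefore uncertain. Symbols, coordinates and union exon lengths came from GENCODE M21 (GRCm38), which named 54495 of 54532 identifiers.

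The analysis used edgeR 4.0.16 in R 4.3.3, with its filterByExpr (at least 10 counts, 15 in total), trimmed-mean scaling and 1 quasi-likelihood model of all 9 libraries with a mean per group. Benjamini-Hochberg adjustment ran over the 12012 genes kept, and genes were called under 0.05. The SE was taken from the fold change and its F statistic. Libraries totalled 1641049 to 4524563 counts, and the 3 counts that a 0 allows came to 0.573 to 2.26 normalised CPM; these limits and count intervals cover counting error only. Alternatives were other size factors and filters, DESeq2 1.42.0, limma 3.58.1 (voom), a replicate block, the compared groups alone, stricter thresholds and leaving out each library of the compared groups. The code was tested on simulated data.

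The 10 genes and all lists were chosen with earlier results of these data known. Other genes were named, per list and comparison, as up to 3 called genes of smallest adjusted p in the list's majority direction and 1 in the other, and their values in other comparisons are given too. Some genes that these rules pick are not reported here.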

Additional observations from a re-analysis of the deposited data

Results flagged for a closer look

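7 of the 10 genes differed between the co-culture libraries, by the direct edgeR quasi-likelihood test of PyMT-N against PyMT-M with Benjamini-Hochberg adjustment. They are listed for that reason alone. Over all tested genes 34.6% were called either way in that comparison. Lpl differed by -4.48 (adjusted p = 1.75e-07), from -2.95 with PyMT-N and 1.53 with PyMT-M cells against alone, in opposite directions. Cd36 differed by -3.29 (adjusted p = 8.64e-05), from -3.88 and -0.59. Acsl1 differed by -1.72 (adjusted p = 1.16e-05), from -2.80 and -1.08, and Plin3 by -1.20 (adjusted p = 0.000448), from -2.14 and -0.94. Plin2 differed by 1.28 (adjusted p = 7.12e-05), from -0.13 and -1.41, and Hilpda by 1.6 (adjusted p = 0.00195), from 3.91 and 2.31. Dgat2 differed by 0.97 (adjusted p = 0.0143), from 0.12 and -0.85. The Dgat2 call was lost with library totals and with leukocyte scaling (edgeR adjusted p = 0.0502 and 0.168), and without some single libraries. In each of the 7 genes all 3 PyMT-N libraries lay on 1 side of all 3 PyMT-M libraries, as they did for 52.9% of all tested genes. The genes were picked by a test of these same values, so this separation is no further evidence. The markers of epithelial and mesenchymal cells also differed between the co-cultures, and their part in these differences was not tested.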

How the results depend on the processing

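Of 531 recomputed fold changes of the 10 genes, 490 stayed on their side of the threshold with no called value changing sign, 23 were no longer past it, 11 were newly past it and 7, called on at least 1 side, changed sign. The 7 came with scaling to leukocyte genes, which moves all genes: PyMT-M against alone became 0.59 for Acsl1, 1.10 for Cd36, 0.83 for Dgat2, 1.55 for Fabp5, 0.28 for Plin2 and 0.75 for Plin3, and PyMT-N against alone became 1.13 for Plin2. The number of the 10 genes called stayed within 1.5 times under every alternative, but its split did not, with 8 higher and 0 lower for PyMT-M against alone under that scaling. The replicate block called 6, 7 and 7 genes for PyMT-N against alone, PyMT-M against alone and PyMT-N against PyMT-M, the same numbers as without it. Same-numbered libraries, whose names also share a number, did not deviate together (correlations of -0.084 to 0.031). The main fit therefore did not take them as pairs, though correlations in such small groups cannot exclude a common source. With any 1 library of the compared groups left out, Lpl ran from -3.41 to -2.61 for PyMT-N against alone, from 1.34 to 1.75 for PyMT-M against alone and from -4.96 to -4.15 for PyMT-N against PyMT-M. Depth limits Fabp4, with at most 13 counts in a library, and Hilpda alone, with at most 3.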
